A study of Homo sapiens with 18 samples.

Results

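HSPA6, HSP90AA1, HSPE1 and DNAJA1 encode heat shock proteins, 3 of the cytosol and 1 of the mitochondria. The 4 genes were picked by symbol from the authors' deposited tables, which name 3647 genes in all, and they were picked because those tables list them as changed. The RNA came from Cal51 cells, an established human line of breast cancer origin, and 12 libraries were used, 3 per group. The cells had been exposed for 8 h to DMSO (the solvent control), to fenofibrate (a fibrate that activates the nuclear receptor PPARα), to ezetimibe (a cholesterol uptake inhibitor whose target is NPC1L1), or to fenofibrate plus ezetimibe, the combination. Doses are not in the labels, and all groups are the same line with no other alteration named. All 4 genes were in the combination table, and none of the 4 was in the fenofibrate table or the ezetimibe table. A table lists a gene only if its log2 fold change exceeds 1 in size and its adjusted p is under 0.05, so the 4 genes have no values with either drug alone, and whether they changed by less there is unknown. Of the genes tested there, a number inferred from p-value ranks and least certain for fenofibrate, 3.47% were listed with ezetimibe (2.70% higher, 0.772% lower) and 0.835% with fenofibrate (0.761% higher, 0.0737% lower).

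Heat shock proteins are chaperones, which bind unfolded proteins and help them to fold or to be degraded. In the cytosol a J-domain protein such as DNAJA1 delivers a client to an HSP70, and many clients, kinases and steroid receptors among them, pass on to HSP90. In the mitochondrial matrix HSPE1 forms the lid of the barrel-shaped chaperonin built by HSPD1. Under proteotoxic stress the transcription factor HSF1 binds heat shock elements, which are repeats of the unit GAA in alternating orientation, and induces many of these genes. HSPA6 is known as a strictly stress-inducible HSP70, nearly silent in unstressed cells, while HSP90AA1, HSPE1 and DNAJA1 are expressed at rest.

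The upstream sequences are shown because HSPA6 and HSP90AA1, which moved in opposite directions, hold the same heat shock motif at about the same distance from a start. They come from RefSeq (build GRCh38.p14), are written 5′ to 3′ on the gene's strand, and carry the motif pairs GAANNTTC and TTCNNGAA in capitals. For HSPA6 the whole 250 bases before the start are shown. For HSP90AA1 (the inner of its 2 RefSeq starts) and DNAJA1 the 30 bases around the motifs are shown.
HSPA6, chr1:161524290-161524539, plus strand: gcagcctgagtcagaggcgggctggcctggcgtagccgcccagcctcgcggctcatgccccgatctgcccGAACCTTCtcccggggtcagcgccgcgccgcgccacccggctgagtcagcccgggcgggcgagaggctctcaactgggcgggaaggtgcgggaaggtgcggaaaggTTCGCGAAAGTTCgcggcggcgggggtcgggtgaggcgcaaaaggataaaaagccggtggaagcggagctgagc
HSP90AA1, chr14:102087104-102087133, minus strand: cTTCCGGAAGGTTCgggaggcTTCTGGAAa
DNAJA1, chr9:33025064-33025093, plus strand: aaagggctccaGAAGATTCcacgagcgccg
A triple motif of the units TTC, GAA and TTC, each separated from the next by 2 bases of any kind, overlaps both pairs. It lay 74 to 62 bases before the HSPA6 start and 88 to 76 bases before the inner HSP90AA1 start. Searched on both strands, it was found in the same window of 0.441% of all 35116 RefSeq starts. It was in 0.342% of the starts of genes listed as higher with the combination and in 0.459% of those listed as lower. HSPA6 held another GAANNTTC pair 180 to 173 bases upstream, HSP90AA1 another TTCNNGAA pair 68 to 61 bases upstream, and DNAJA1 a single GAANNTTC pair 198 to 191 bases upstream. The pair motifs read the same on both strands, and either pair was present in 11.6% of all starts. Neither was found before the HSPE1 start or before the outer HSP90AA1 start. The RefSeq start of HSPE1, 197500379, lies inside the gene as annotated. All 250 bases before it are annotated exon of HSPE1 or HSPD1, and sequence further upstream of HSPE1 was not searched. Annotated exons also cover 147 of the 250 bases before the inner HSP90AA1 start, 156 before the outer one and 208 before the DNAJA1 start. A match is a description of the letters and not a measured binding site.

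Reads assigned to the genes of the combination table numbered 2550718 to 3265200 per library, and the total depth is unknown. Values are read counts scaled by the authors with 1 factor per library (0.912 to 1.09). They are shares of a library and show neither the number of cells nor the amount of RNA per cell. Replicate libraries of the combination and of DMSO differed by more than sampling noise (chi-square per degree of freedom 2.77 to 22.4). The ezetimibe and fenofibrate libraries were not checked in this way. Nothing in the labels says that replicates of any group were separate cultures. The cell type could not be checked on its markers, because genes that did not pass the authors' thresholds have no values. Among 8 epithelial markers KRT7 was listed as higher with the combination, and among 8 mesenchymal markers COL1A1 and PDGFRB were listed as lower. Of 8 immune and endothelial markers 0 were listed with the combination, and 1 was listed as lower with ezetimibe (12.5%, against 0.772% of all genes tested there). For the combination the shares of all tested genes were 10.3% higher and 7.27% lower. KRT7 rested on 12 reads summed over the DMSO libraries, against 116 with the combination. With 8 genes per list, no shift of cell type is read from these counts.

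With the combination 1 of the 4 genes was higher and 3 were lower. Of 19944 genes that the authors tested, again an inferred number, 17.6% were listed, 10.3% as higher and 7.27% as lower. The 4 genes were chosen because they are in that list, so nothing is read from their count, and their changes are described without a test. None of the 4 had overlapping groups, as was the case for 99.0% of the genes of the table. Refitted with limma, 100% of the listed genes passed an adjusted p of 0.05 in the combination and fenofibrate tables and 99.8% in the ezetimibe table, so passing it separates no gene from the others.

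HSPA6, the inducible HSP70 (ENSG00000173110, hg38 chromosome 1, 161524540 to 161526910, plus strand), is annotated as 1 transcript with 1 exon. Its normalised read counts were 0.977, 0.918 and 3.20 in DMSO replicates 1 to 3 and 107, 113 and 137 in the combination replicates. These values came from 1, 1 and 3 reads in DMSO and from 98, 122 and 143 reads with the combination. The gene was therefore close to undetected in DMSO, and the lowest treated library was 33.5-fold above the highest DMSO library.

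The ratio of the HSPA6 means was 70.1-fold (119 ± 15.7 against 1.70 ± 1.30, SD, n = 3). The 95% exact interval of the ratio from the summed reads, 363 against 5, ran from 31.0-fold to 226-fold, which covers counting error only. Without DMSO replicate 3, which held 3 of the 5 DMSO reads, the ratio was 126-fold, and without any other single library it was 57.02-fold to 73.57-fold. On the log2(value + 1) scale the difference was 5.57 ± 0.38 (SE, limma), and the authors' deposited table gives a log2 fold change of 6.18. The added 1 draws the first value towards 0. By the authors' log2 fold change HSPA6 stood 35th of the 2058 genes listed as higher. Even so its level remained low, at 50.2 normalised reads per kb of gene length against 2723 for HSP90AA1 in the same libraries. HSPA7, a pseudogene copy of HSPA6, was not listed. Reads that other HSP70 genes share with HSPA6 could be split differently by another counting method, so its low values carry that uncertainty.

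**Figure D1:**
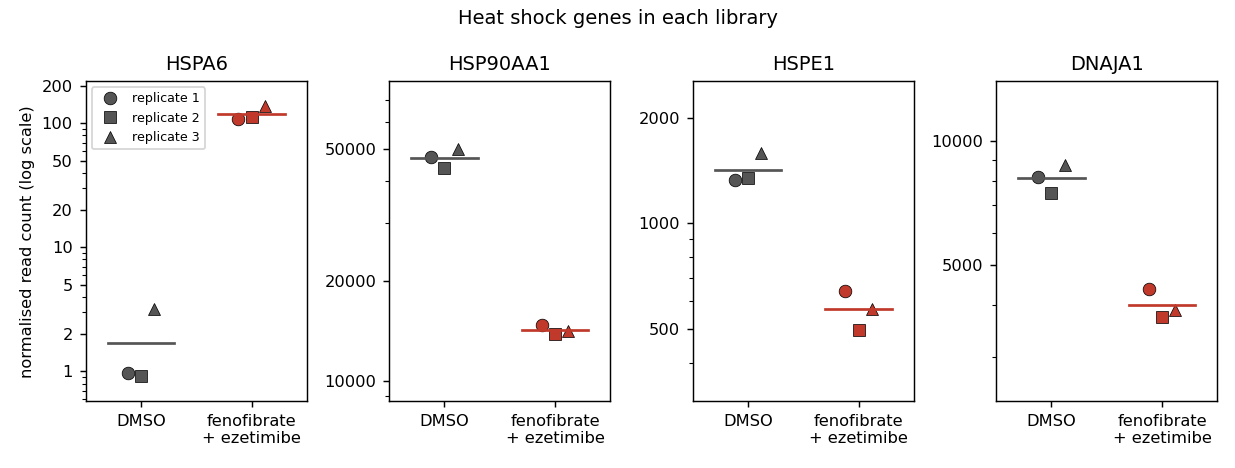
Normalised read counts (log axes, 1 panel per gene) of HSPA6, HSP90AA1, HSPE1 and DNAJA1 in the 3 DMSO and 3 combination libraries, with marker shapes for replicate numbers and horizontal lines for group means. HSPA6 lies at 0.918 to 3.20 in DMSO and at 107 to 137 with the combination, while the other 3 genes lie lower with the combination than in any DMSO library.

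HSP90AA1 encodes the inducible cytosolic HSP90 (ENSG00000080824, chromosome 14, 102080738 to 102139699, minus strand, 10 annotated transcripts). Its normalised read counts were 47144, 43840 and 49960 in DMSO replicates 1 to 3 and 14788, 13910 and 14171 with the combination. The lowest DMSO library stood 2.96-fold above the highest treated one, and the treated libraries were the closest together of the 4 genes, with an SD of 3.15% of the mean. The mean was 3.29-fold lower with the combination (14289 ± 451 against 46981 ± 3063, SD, n = 3), a log2 difference of -1.72 ± 0.11 (SE, limma).

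HSP90AA1 was among the most abundant transcripts of the table. Its DMSO value was the highest of the 1422 nuclear genes listed as lower, and the fall of its mean by 32692 normalised reads was the largest among them, ahead of the tubulin gene TUBB at 18019. Among all 1450 genes listed as lower, 6 lost more reads, and all 6 are encoded by the mitochondrial genome. By fold change HSP90AA1 stood only 479th of the 1450 in the authors' deposited table.

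Near-identical copies of HSP90 genes were also listed as lower. HSP90AA2P, a pseudogene of HSP90AA1 on chromosome 11, had 70.3 ± 3.44 against 194 ± 12.3 normalised reads, and HSP90AB3P, a pseudogene of the related HSP90AB1 on chromosome 4, had 51.2 ± 8.80 against 108 ± 8.22. Per kb of gene length HSP90AA1 had 102 ± 13.0 times the reads of HSP90AA2P in DMSO and 85.2 ± 6.46 times with the combination. Whether reads of the gene were assigned to its copies was not tested. HSP90AB1 itself, the constitutive cytosolic HSP90, was not listed.

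**Figure D2:**
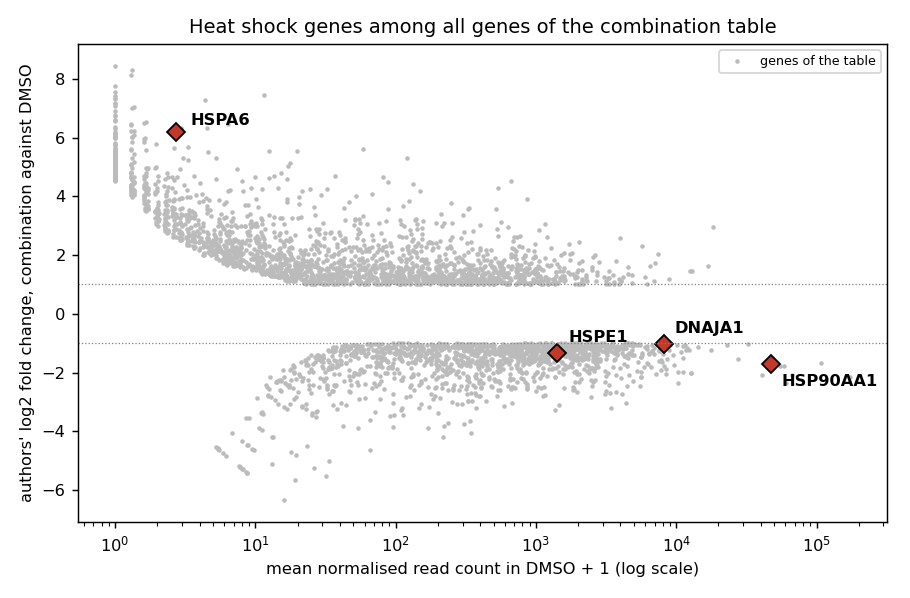
The authors' log2 fold change of the combination against DMSO (vertical axis) is plotted against the mean normalised read count in DMSO plus 1 (log axis) for the 3508 genes of the combination table (grey points), with the 4 heat shock genes as red diamonds and dotted lines at the listing threshold of 1. HSPA6 lies at the low-abundance end at 6.18, and HSP90AA1 lies at the high-abundance end at -1.72.

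DNAJA1, the J-domain partner of cytosolic HSP70 (ENSG00000086061, chromosome 9, 33025211 to 33039907, plus strand, 3 transcripts), had 8182, 7473 and 8745 normalised reads in DMSO and 4382, 3737 and 3888 with the combination. Its groups did not overlap, with the lowest DMSO library 1.71-fold above the highest treated one. The mean was 2.03-fold lower (4002 ± 337 against 8133 ± 637, SD, n = 3), a log2 difference of -1.02 ± 0.11 (SE, limma). This lies just inside the listing threshold, and 96.0% of the genes listed as lower had a larger change in the authors' deposited table. Without DMSO replicate 3 the log2 difference was -0.97 and without combination replicate 2 it was -0.98, both smaller in size than the threshold of 1.

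HSPE1, the mitochondrial chaperonin lid (ENSG00000115541, chromosome 2, 197499994 to 197503457, plus strand, 7 transcripts), had 1329, 1342 and 1588 normalised reads in DMSO and 643, 498 and 570 with the combination. All treated libraries lay under all DMSO libraries, with the lowest DMSO library 2.07-fold above the highest treated one. The mean was 2.49-fold lower (570 ± 72.9 against 1420 ± 146, SD, n = 3), a log2 difference of -1.32 ± 0.13 (SE, limma), and 60.3% of the genes listed as lower had a larger change in the authors' deposited table. Its partner HSPD1, whose gene lies on the opposite strand and overlaps it, was not listed. Of the 1977 exon bases of HSPE1, 23.9% are shared with exons of other genes, 281 with HSPD1 on the opposite strand and 192 with the readthrough gene HSPE1-MOB4 on the same strand. The sources used here do not say whether the counting used strand, so reads in those stretches cannot be assigned with certainty.

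The order of the 3 lower genes by level was the same in both groups. Per kb of gene length HSP90AA1 had 8952 normalised reads in DMSO, DNAJA1 2979 and HSPE1 718, and with the combination they had 2723, 1466 and 288. The falls were unequal. The ratio of HSP90AA1 to DNAJA1 per kb went from 3.01 ± 0.04 in DMSO to 1.86 ± 0.09 with the combination, with no overlap between libraries, and the ratio of HSP90AA1 to HSPE1 went from 12.5 ± 0.77 to 9.52 ± 0.95.

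The order of the replicates was shared in part. DMSO replicate 3 had the highest value of its group for all 4 genes, as it did for 44.1% of the genes listed as lower and 33.4% of those listed as higher. Combination replicate 1 was the highest of its group for HSP90AA1, HSPE1 and DNAJA1, as for 41.8% of the genes listed as lower, while for HSPA6 it was the lowest. Before scaling the DMSO order was different for HSP90AA1, at 48266, 47753 and 46806 reads in replicates 1 to 3, and the DNAJA1 reads with the combination were nearly equal, at 3998, 4033 and 4060. The authors' factor was lowest in these 2 libraries, 0.937 for DMSO replicate 3 and 0.912 for combination replicate 1.

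HSP90AA1, DNAJA1 and HSPE1 were also set against a counterpart that was listed as higher. These pairs were chosen after their values were seen and are ratios within a library, which do not depend on the scaling. The ratio of cytosolic HSP90AA1 to HSP90B1, the HSP90 of the endoplasmic reticulum, per kb was 2.50, 2.59 and 2.44 in DMSO and 0.246, 0.238 and 0.250 with the combination. The cytosolic gene exceeded its counterpart in every DMSO library and was the lower of the pair in every treated library. The ratio of HSP90AA1 to HSPA5, the HSP70 of the endoplasmic reticulum, went from 1.90 ± 0.08 to 0.0740 ± 0.0006. DNAJA1 stood at 34.4 ± 2.84 times DNAJB9, a J-domain protein of the endoplasmic reticulum, in DMSO and at 1.24 ± 0.12 times with the combination. In the mitochondria the ratio of HSPE1 to LONP1, the main matrix protease, went from 0.780 ± 0.226 to 0.122 ± 0.006.

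**Figure D3:**
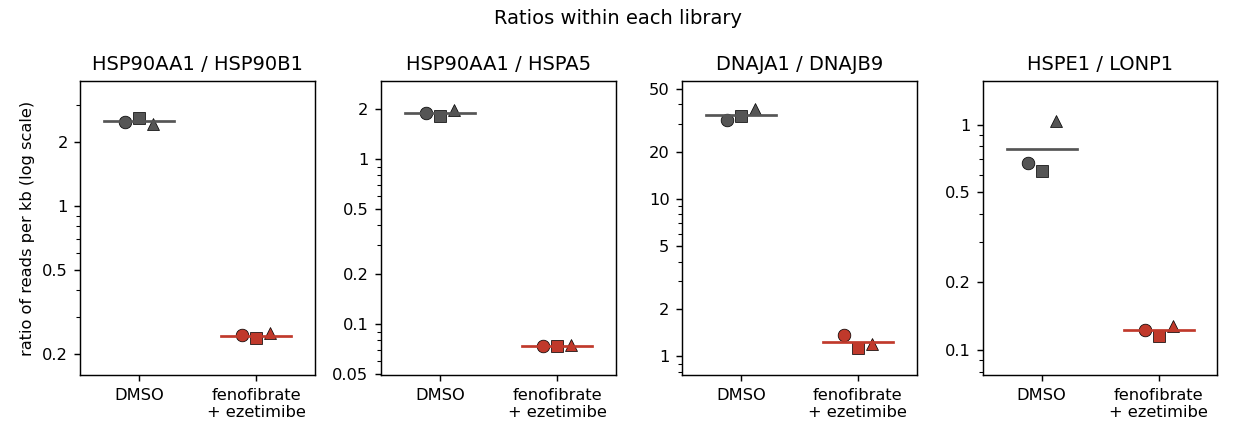
Ratio of reads per kb of gene length (log axes) between a heat shock gene and a counterpart, in each DMSO (grey) and combination (red) library, with marker shapes for replicates 1 to 3 and lines for means. HSP90AA1 to HSP90B1 goes from 2.44 to 2.59 in DMSO to 0.238 to 0.250 with the combination. No panel has overlapping groups, but each pair sets a gene listed as lower over one listed as higher. The separation was therefore set by the choice of pairs, and nothing is read from it.

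Few other genes of the heat shock system passed the authors' thresholds. Of 30 textbook HSF1 targets, 4 were listed as higher and 4 as lower with the combination (13.3% each, against 10.3% and 7.27% of all tested genes). Leaving out the 4 genes described above, 3 of 26 were higher (11.5%) and 1 was lower (3.85%). Among the higher ones were ZFAND2A, a stress-induced adaptor of the proteasome (754 ± 93.5 against 143 ± 34.1), and DEDD2, a death effector domain gene (987 ± 208 against 434 ± 75.5). The lower one was CACYBP, a co-chaperone related to SGT1 (1764 ± 99.2 against 3804 ± 42.4). The other 22, among them HSPA1A, HSPA1B, HSPA8, HSPH1, DNAJB1, HSPB1, BAG3 and HSPD1, were not listed. In all lists every gene is counted in the share, tested or not, while the background holds tested genes only. An untested gene lowers the share of its list, so a share near or under the background is not read as a shortfall.

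The families gave a similar picture. Of all tested genes 10.3% were listed as higher and 7.27% as lower. HSPA6, HSP90AA1 and DNAJA1 are in the family counts although they were picked because they are listed. In the family of HSP70 and HSP110 genes 2 of 12 were listed, HSPA6 as higher and the atypical HSPA12B as lower (8.33% each). HSPA12B had 63.4 ± 18.5 against 191 ± 12.9 (log2 difference -1.62 ± 0.24, limma adjusted p = 7.49e-05). Of 17 genes for HSP90 and its co-chaperones, HSP90AA1 and CACYBP were lower (11.8%) and 0 were higher. Of 20 J-domain genes of the cytosol and nucleus 3 were higher (15.0%) and DNAJA1 was lower (5.0%). The higher ones were DNAJB2 (2194 ± 349 against 955.5 ± 163), DNAJC6, the clathrin-uncoating auxilin (238 ± 13.7 against 52.4 ± 10.1), and DNAJC12, with 14.2 ± 5.48 normalised reads against 0 reads in all 3 DMSO libraries. Against a floor of 3 reads for the DMSO group as a whole the ratio for DNAJC12 was 14.7-fold, and the lower limit of the 95% exact interval from 44 against 0 reads was 11.5-fold. HSBP1, which encodes a small protein that binds heat shock factors, was lower (832 ± 84.9 against 2053 ± 89.1), and HSF1 and HSF2 were not listed. HSPB11, a subunit of the intraflagellar transport machinery named after the small heat shock proteins, was the only listed gene of 10 in that list (10.0%). It was lower, at 272 ± 13.6 against 574 ± 24.1. None of 14 genes for the chaperonin TRiC and prefoldin and none of 6 nucleotide exchange factors of HSP70 was listed.

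**Figure D4:**
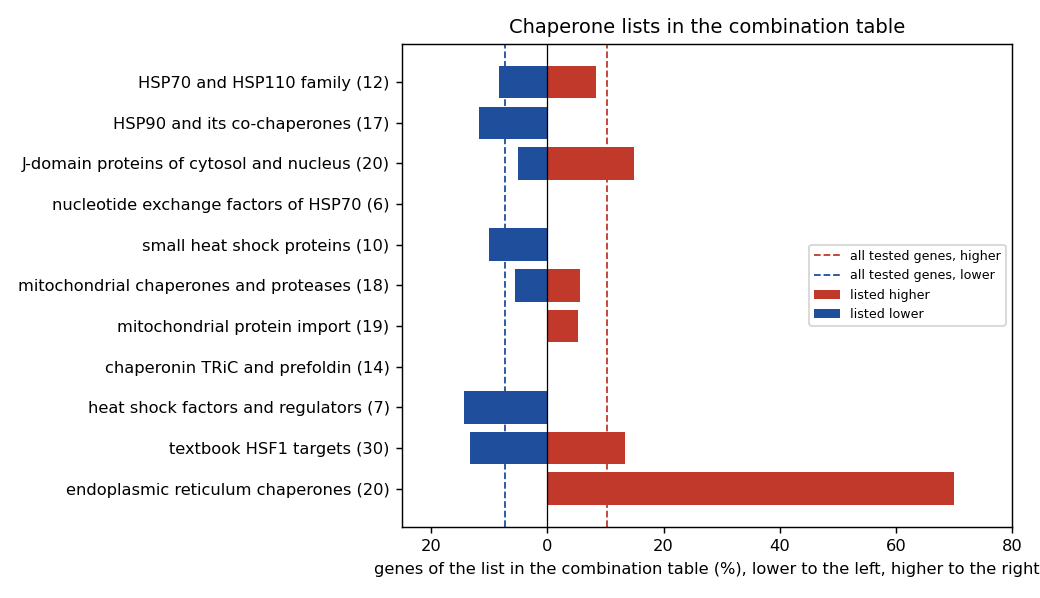
Share of the genes of each chaperone list (list size in brackets) that the combination table lists as higher (red, to the right) or lower (blue, to the left), in percent, with dashed lines at the shares of all tested genes, 10.3% and 7.27%. The list of endoplasmic reticulum chaperones reaches 70.0% higher, and the lists of cytosol and mitochondria stay between 0 and 15.0% on either side.

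In the mitochondria the list of 18 chaperones and proteases had HSPE1 lower and LONP1 higher (5.56% each, against 7.27% and 10.3% of all tested genes). Of 19 import genes PAM16 (5.26%), part of the import motor, was higher at a low level (74.1 ± 6.34 against 31.3 ± 9.12). LONP1 had 11994.5 ± 1301 normalised reads against 4840 ± 824 (log2 difference 1.32 ± 0.14, limma adjusted p = 7.09e-06). It was the only gene of all chaperone lists outside the endoplasmic reticulum that the ezetimibe table also listed, 1 of 130 (0.769%, against 2.70% of the 13596 genes tested there, also an inferred number). With ezetimibe alone it was 2.16-fold higher (10467 ± 51.1 against 4853 ± 831). On the scale of the shared DMSO libraries the combination and ezetimibe differed for LONP1 by 0.19 ± 0.11 on the log2 scale, which did not pass (limma adjusted p = 0.155 over the 359 genes in both tables, of which 63.2% passed). The same comparison with fenofibrate was passed by 78.5% of the 65 genes that both tables list, and 0 of the 65 are on the chaperone lists.

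Chaperones of the endoplasmic reticulum were mostly listed as higher. With the combination 14 of the 20 genes of that list were higher (70.0%, against 10.3% of all tested genes) and 0 were lower (against 7.27%), with a median log2 fold change of 1.61 in the authors' deposited table, against 1.82 over all genes listed as higher. Outside that list 9 of 130 chaperone genes were higher (6.92%) and 7 were lower (5.38%), the 4 heat shock genes included. Without these 4, which were picked because they are listed, 8 of 126 were higher (6.35%) and 4 were lower (3.17%). HSPA13 and HSP90B1, relatives of HSPA6 and HSP90AA1 in the endoplasmic reticulum, had log2 differences of 0.99 ± 0.20 and 1.64 ± 0.11 (limma adjusted p = 0.000698 and 4.64e-07), so the 2 HSP70 genes went the same way and the 2 HSP90 genes opposite ways. Of the 20 genes 5 were also listed with ezetimibe, all as higher (against 2.70% of all tested genes), and 0 with fenofibrate (against 0.761%).

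**Figure D5:**
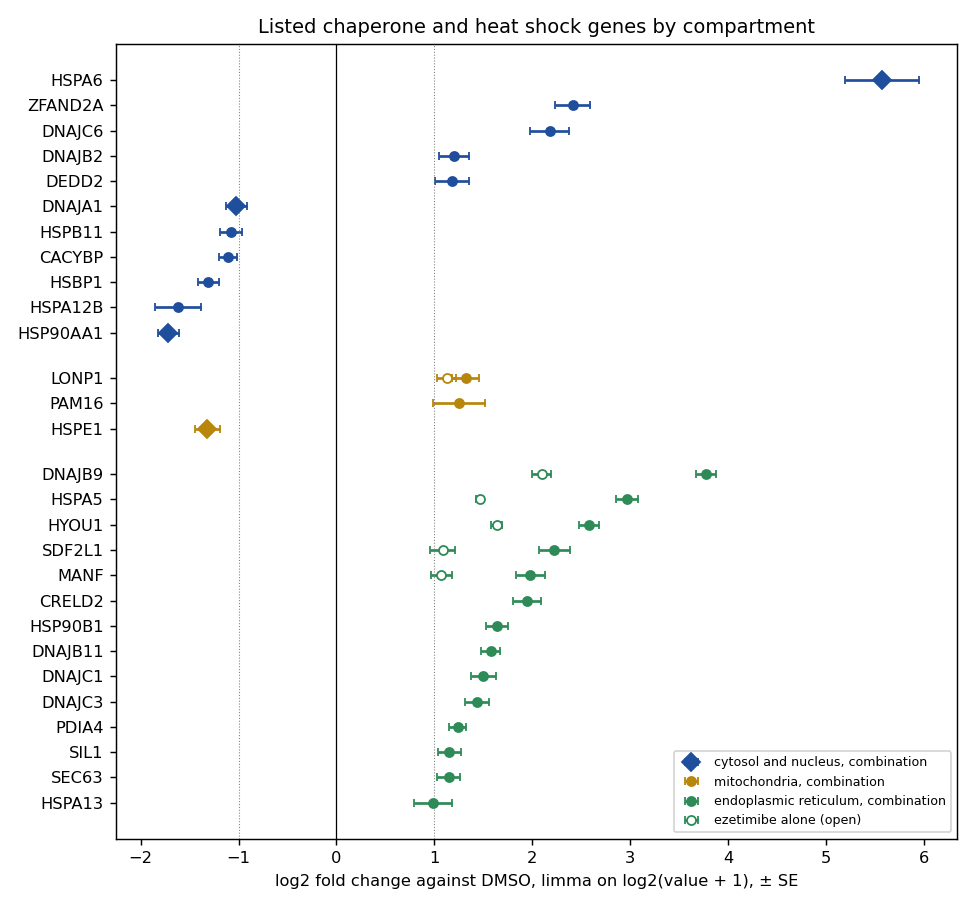
Log2 fold change against DMSO with SE (limma on log2 of the value plus 1, horizontal axis) for listed genes of the heat shock and chaperone lists, by compartment, with diamonds for HSPA6, HSP90AA1, HSPE1 and DNAJA1, filled symbols for the combination and open circles for ezetimibe alone where listed. DNAJC12 is not drawn because it had 0 reads in DMSO. All 14 endoplasmic reticulum genes lie to the right of 0, and the cytosolic genes run from -1.72 to 5.57.

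The genes most like each of the 4 were sought among 2099 protein-coding genes of the combination table with a mean of at least 50. Likeness was the root mean square difference of profiles of log2(value + 1) over the 6 libraries, centred on DMSO. For HSPA6 they were DEPP1 (0.318), ATF3 (0.380) and TNFRSF9 (0.454), of which ATF3 and TNFRSF9 had log2 fold changes of 5.61 and 5.67 in the authors' deposited table. For HSP90AA1 they were RBPMS2 (0.0314), B3GNT2 (0.0490) and the mitochondrial genome gene MT-ND2 (0.0736), and for HSPE1 APIP (0.0565), IL13RA1 (0.0639) and HMGN3 (0.0811). For DNAJA1 they were TCEAL9 (0.0199), KCTD6 (0.0320) and CCNB1 (0.0457), the mitotic cyclin B1. The values for HSPA6 rest on 1 to 3 reads in DMSO and are not comparable with those of the other 3 genes. The added 1 puts HSPA6 at 5.57 on this scale, against 6.18 in the authors' deposited table. Whether its nearest genes depend on the added 1 was not tested.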

How the data were processed

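Total RNA of Cal51 cells was sequenced, and the build hg38 and the tools HISAT2 2.0.5, featureCounts 1.5.0-p3 and fastp are listed, per the submitters' processing notes. Each of 3 deposited tables holds, per the file headers, the signal (read counts scaled per library by the authors) of 3 treated and the 3 DMSO libraries, the authors' log2 fold change and the authors' p-value and adjusted p-value. No source used here names the tool of their comparison. For the combination, 100% of values divided to whole reads within 0.001. Positions equal those of GENCODE release 29 for the 4 genes. Not analysed here are 6 other libraries, of a PKM2 knockout and of control cells.

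Each table was fitted alone with limma 3.58.1 (trend, R 4.3.3), with 1 added to each value before taking log2, and with 2-sided p-values adjusted by Benjamini-Hochberg over the table and a threshold of 0.05. The fit was checked on simulated data. All listed genes were picked by the authors on these libraries, so the p-values describe and are not independent evidence. The combination was compared with ezetimibe over genes in both tables, scaled through the DMSO libraries. Alternatives were other pseudocounts, a filter, edgeR 4.0.16 and DESeq2 1.42.0 on recovered reads, no scaling, a replicate block and leaving out each library.

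The number of genes tested was inferred from p-value ranks, 89.6% of which were whole within 0.02 for the combination and 88.4% for ezetimibe. For fenofibrate only 53.3% of 15 ranks were whole, so its number of tested genes and its shares are uncertain. Genes named were the 4 members, the listed genes of 14 lists (at most 3 per direction in the longest), copies of the members and the 3 nearest profiles. The values of 1 such gene are not reported here, and the counts include it. The members and lists were chosen with earlier results of these data known. Promoters were matched by symbol (4 of 4 genes, 5 starts), and motifs were searched in the 250 bases before each start.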

Additional observations from a re-analysis of the deposited data

How the results depend on the processing

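The direction of the 4 heat shock genes held under every alternative run. They were picked because these same libraries list them as changed, so this was largely set by the choice and is no independent support. HSPA6, with 5 reads in DMSO, depended on the handling of low counts. Its log2 difference of 5.57 became 4.22 with 5 added, 6.08 with edgeR and 6.18 with DESeq2, and it ran from 5.37 to 5.94 when each library was left out. Those of HSP90AA1, HSPE1 and DNAJA1 ran from -1.76 to -1.67, -1.41 to -1.22 and -1.09 to -0.97. A mean value of at least 50 left 2303 of 3508 called genes in the combination table and 295 of 471 in the ezetimibe table, since fewer genes were tested. On recovered reads edgeR called 3508 genes and DESeq2 3506. The 26 other listed chaperone genes were called with each library left out, and 685 of 685 alternatives for 53 comparisons of single genes kept direction and call. These genes too were listed on the same libraries, so that outcome was largely set by the choice. Replicate numbers did not pair the libraries (correlations of deviations 0.0916, -0.327 and 0.157 for numbers 1 to 3), and with a replicate block 3508 genes were called. The block cannot move the estimates of this balanced design (-1.72 for HSP90AA1), and its SE went from 0.11 to 0.16. Count tests and unscaled reads were run on the combination table alone. In HSPA6 depth limits the DMSO value to 1 to 3 reads per library.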

Other observations

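Some genes named after chaperones but outside the lists also stood in the tables, and all were chosen after their values were seen. While none of the subunits of the chaperonin TRiC was listed, CCT6B, the testis paralogue of the subunit gene CCT6A, had 42.3 ± 3.43 normalised reads with the combination against 9.72 ± 6.20 in DMSO. The pseudogenes CCT6P1 (210 ± 6.99 against 67.8 ± 6.25) and CCT6P3 (62.4 ± 9.43 against 19.8 ± 3.21) were higher as well. CCT6B, CCT6P1 and CCT6P3 resemble CCT6A in sequence, and whether they received its reads was not tested. DNAJC25, a J-domain gene, was 3.29-fold higher with the combination (808 ± 52.6 against 246 ± 38.3). DNAJB13, a J-domain protein of cilia and sperm flagella, was listed as higher in the ezetimibe table (36.3 ± 4.45 against 16.9 ± 2.26) and was not in the combination table.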
